A study of Homo sapiens with 6 samples.

Results

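Accessible regions of at least 150 bp made up 283 of the 591 regions that the study listed for SMARCD2 knockdown in NB4 cells, a human acute promyelocytic leukaemia line. They were chosen by width alone, and 149 of 323 came from the DMSO table and 134 of 268 from the all-trans retinoic acid (ATRA) table. Accessibility was measured by ATAC-seq. Undifferentiated cells were kept in DMSO and differentiated cells in 1 µM ATRA. In each condition 1 control library (CTRL) stood beside 2 libraries with SMARCD2 knocked down by a short hairpin RNA, shRNA1 or shRNA2. The 2 hairpins stand in for replicates, and whether any library was a culture of its own is not stated in the labels. The listed regions all had an unadjusted p below 0.005 in the authors' own test of knockdown against control (largest p 0.00499 in DMSO and 0.00498 in ATRA) and a gene within 10 kb. Each region was therefore listed because its libraries differed, so the knockdown values below describe the regions and are not a test of them.

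In ATAC-seq the transposase Tn5 inserts adapters where DNA is not covered by nucleosomes, and a called region is wider where such insertions extend over a longer stretch, as they commonly do at active promoters. SMARCD2 is a subunit of the BAF (SWI/SNF) complexes, which use ATP to slide or evict nucleosomes, and it is known for its role in granulocyte differentiation. ATRA drives promyelocytic leukaemia cells towards granulocytes. SMARCD2 itself had 0 listed regions, and no transcript was measured in these libraries, so neither the depletion nor the identity of the cells by marker expression was checked here.

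The promoters of the genes nearest to the regions were examined for CpG, the dinucleotide that is depleted in most of the genome but kept at many promoters. In the 250 bases before the gene start (RefSeq, build GRCh38.p14), the genes of the DMSO regions of 500 bp or more held a median of 25.5 CpG (lower and upper quartile 16.8 and 28.2, 36 of 36 genes matched). Those of the ATRA regions of that width held 27.0 (18.0 and 33.0, 33 of 37 matched). Across all 15842 protein-coding promoters of the same reference table the median was 17.0 (6.00 and 26.0). At least 15 CpG were present in 77.8% and 78.8% of these promoters, against 57.4% of all. Over all wide DMSO regions the share was 66.4% (131 of 149 genes matched), close to the 65.9% of all listed DMSO regions (261 of 319). The counts did not rise steadily with width, since in DMSO the median was 15.5 for regions of 200 bp to under 300 bp (26 of 32 genes matched) and 24.0 for those of 150 bp to under 200 bp (43 of 48). The comparison was void for the ATRA regions as a whole (79.1% of genes matched) and for the regions under 150 bp (76.7% and 78.9%), where under 80% of genes had an entry. These values carry no test, and where a region lies relative to the gene start was not analysed here, because the regions are given in GRCh37.p13 and the promoters in GRCh38.p14.

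**Figure D1:**
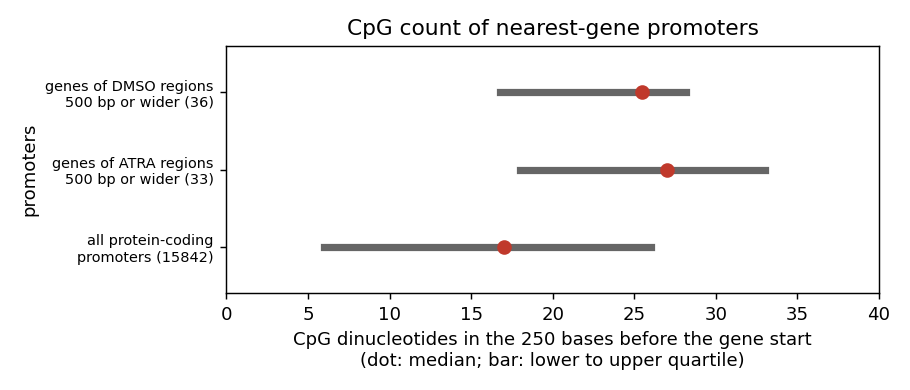
CpG dinucleotides in the 250 bases before the gene start (x axis, count) for genes nearest to regions of 500 bp or more in DMSO and in ATRA and for all protein-coding promoters in the RefSeq table. The dot is the median and the bar runs from the lower to the upper quartile. The medians are 25.5, 27.0 and 17.0.

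To show the range, the promoters with most and with fewest CpG among the 12 widest regions of each table are given, each 5′ to 3′ on the strand of its gene, with every CpG in capitals. FCHSD2 (chr11:73142319-73142568, minus strand, 30 CpG) and LPIN2 (chr18:3011948-3012197, minus strand, 5 CpG) are the genes nearest to DMSO regions. NOP56 (chr20:2652382-2652631, plus strand, 37 CpG) and NARF (chr17:82457948-82458197, plus strand, 10 CpG) are the genes nearest to ATRA regions.
FCHSD2: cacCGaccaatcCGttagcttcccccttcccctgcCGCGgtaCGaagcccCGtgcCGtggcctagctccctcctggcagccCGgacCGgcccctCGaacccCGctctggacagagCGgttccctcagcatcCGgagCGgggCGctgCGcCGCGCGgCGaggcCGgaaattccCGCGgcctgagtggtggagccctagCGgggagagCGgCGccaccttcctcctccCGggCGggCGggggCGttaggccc
LPIN2: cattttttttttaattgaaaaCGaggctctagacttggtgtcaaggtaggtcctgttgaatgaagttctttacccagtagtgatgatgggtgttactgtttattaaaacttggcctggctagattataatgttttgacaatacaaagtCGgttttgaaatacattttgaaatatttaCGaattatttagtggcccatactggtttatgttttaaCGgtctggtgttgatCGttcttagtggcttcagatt
NOP56: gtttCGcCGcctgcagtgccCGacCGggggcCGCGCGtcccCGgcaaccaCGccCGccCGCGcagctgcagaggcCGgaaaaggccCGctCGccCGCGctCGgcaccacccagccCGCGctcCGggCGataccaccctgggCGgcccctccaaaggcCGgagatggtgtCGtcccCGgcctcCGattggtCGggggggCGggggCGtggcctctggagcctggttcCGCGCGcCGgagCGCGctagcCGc
NARF: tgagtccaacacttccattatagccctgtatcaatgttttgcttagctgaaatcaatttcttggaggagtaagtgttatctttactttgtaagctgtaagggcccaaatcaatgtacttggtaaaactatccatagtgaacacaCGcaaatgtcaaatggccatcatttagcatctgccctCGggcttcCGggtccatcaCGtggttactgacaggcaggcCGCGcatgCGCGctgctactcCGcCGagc
The regions of FCHSD2 and NOP56 overlap their genes, while those of LPIN2 and NARF lie 673 bp and 5960 bp outside. Position relative to the gene start was not analysed, so a printed promoter need not lie at its region. A GC box, searched as GGGCGG on both strands, was present in 77.8% of promoters of DMSO genes with regions of 500 bp or more. The share was 75.8% for ATRA genes with regions of that width and 56.0% for all promoters. It was 72.5% over all wide DMSO regions and 68.2% over all listed ones. Part of the gap to all promoters was therefore shared by the listed DMSO regions in general. The ETS core CCGGAAG, searched on both strands, can share only end letters with the GC box. It was present in 30.6% (DMSO, 500 bp or more), 12.1% (ATRA, 500 bp or more) and 11.8% (all promoters). Over all wide DMSO regions its share was 17.6%, and it was lower still over all listed ones. For the ATRA regions as a whole these comparisons were void, as for CpG. Both motifs were chosen after the data were seen, and a match is a description of the letters only.

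Wide regions held most of the listed reads. They took 84.4%, 85.0% and 91.0% of the reads of the DMSO table with shRNA1, shRNA2 and the control, and 84.9%, 86.5% and 85.6% of those of the ATRA table. The median wide region was 259 bp long with 102 reads over the 3 libraries in DMSO, and 327.5 bp with 114.5 reads in ATRA, whereas the median narrower region had 23 reads in both. A control library with 0 reads was rare among them: 10 of 149 (6.71%) in DMSO and 14 of 134 (10.4%) in ATRA, against 58.6% and 64.9% of the regions under 150 bp.

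The fold change of a listed region was smaller the wider it was. The median size of the authors' log2 fold change, without its sign, was 2.72 for DMSO regions of 150 bp to under 200 bp, 1.89 from there to under 300 bp, 1.13 to under 500 bp and 0.71 for 500 bp or more. In ATRA the same classes had 3.44, 2.00, 1.33 and 0.90. Among wide regions with at least 1 control read, width and size of change had a Spearman rho of -0.871 (n = 139 regions) in DMSO and -0.789 (n = 120) in ATRA, and reads and size of change -0.949 and -0.963. The regions of a table share 3 libraries and a limit on p, and a limit on p admits small changes only where reads are many, so these correlations are given without a test.

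**Figure D2:**
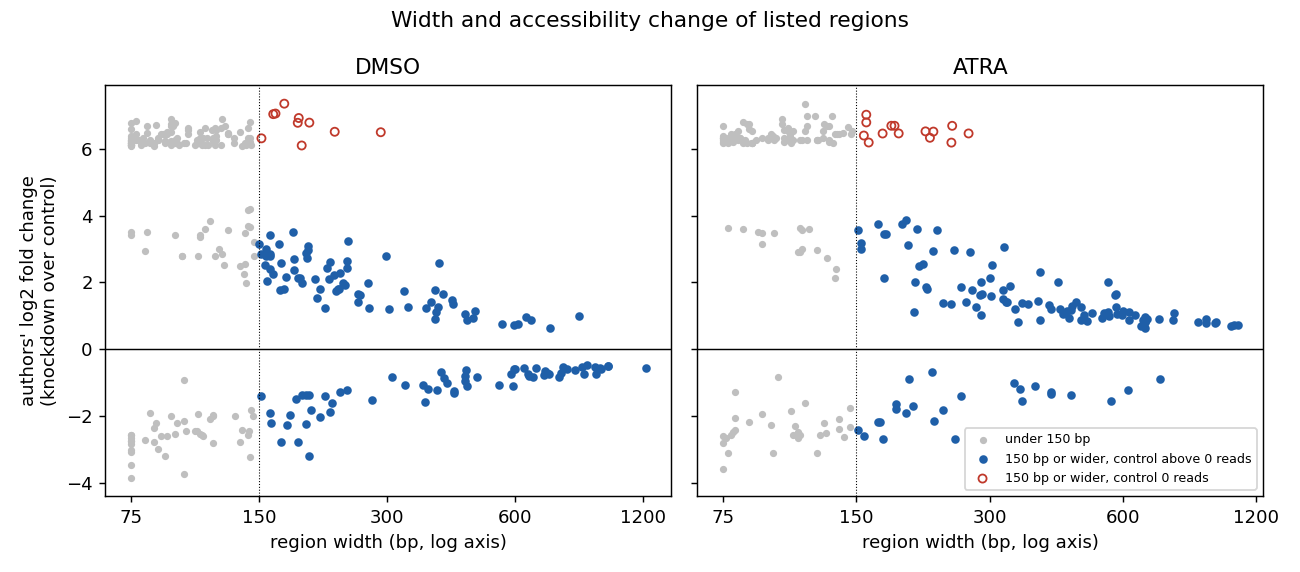
Width of each listed region (x axis, bp, log axis) against the authors' log2 fold change of knockdown over control (y axis) in DMSO and ATRA. Grey points are regions under 150 bp, filled blue points wide regions with control reads and open red points wide regions with 0 control reads. The widest DMSO regions lie mostly below 0 and the widest ATRA regions mostly above 0, close to the line; on normalized counts 21 of the 34 higher ATRA regions of 500 bp or more turn to the other side.

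In DMSO the widest regions were mostly less accessible in the knockdown. Of the 149 wide regions 83 were higher in the knockdown and 66 lower (55.7% higher, against 65.9% of all 323 listed regions and 74.7% of the narrower ones). With a limit of 200 bp the majority turned, to 49 higher and 52 lower (48.5% higher). Of the 36 regions of 500 bp or more, 7 were higher and 29 lower. The remaining classes had 34 higher of 48 (under 200 bp), 25 of 32 (200 bp to under 300 bp) and 17 of 33 (300 bp to under 500 bp). The signs were the same with both of the authors' scalings, the one behind their fold changes and the one behind their normalized counts, which differ by 0.18 log2 units in DMSO.

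The widest DMSO region, 4866 bp from TRIM41, a ubiquitin ligase gene, spans 1216 bp (chr5:180644181-180645396, GRCh37.p13). It held 269 reads with shRNA1, 173 with shRNA2 and 263 in the control and was 1.47-fold lower in the knockdown (95% exact counting interval 1.26 to 1.72). Its 2 hairpins lay further apart than those of the other widest regions. The next regions were tighter: ACAP2, a GTPase-activating protein gene of the Arf family (chr3:195163182-195164173), had 326, 302 and 359 reads in the same order and was 1.42-fold lower (1.24 to 1.61). DUSP6, an ERK phosphatase gene, had a region 868 bp away with 301, 276 and 332 reads that was 1.43-fold lower (1.24 to 1.63). In both, each hairpin lay below the control once scaled by library size.

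The best covered region of either table, in FCHSD2, which codes for an endocytic F-BAR protein (chr11:72852979-72853863), held 436, 508 and 524 reads. It had 403 ± 24.0 normalized counts with the hairpins (SD, n = 2) and 629 without, and it was 1.37-fold lower (1.23 to 1.53). It had the smallest size of change of all listed DMSO regions, a log2 fold change of -0.46 in the authors' deposited table. RRM2, the small subunit gene of ribonucleotide reductase, which makes deoxynucleotides, had 256, 252 and 294 reads and was 1.43-fold lower (1.24 to 1.66).

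Further regions of this class were lower as well. ME2, the mitochondrial malic enzyme gene, had 196, 228 and 251 reads (1.47-fold lower, 1.25 to 1.72). PAIP2, a repressor of poly(A)-binding protein, had 160, 144 and 204 (1.66-fold lower, 1.38 to 1.99). CKAP2, a spindle protein gene, had 259, 227 and 285 (1.45-fold lower, 1.25 to 1.68). LPIN2, RUFY2, TMX4 and MDM4, the last a p53 inhibitor gene 9184 bp from its region, were between 1.44-fold and 1.66-fold lower. The exception among the 12 widest was ANAPC10, a subunit gene of the anaphase-promoting complex, with 112, 102 and 43 reads. Both hairpins lay above the control there, and the region was 2.01-fold higher (1.44 to 2.86).

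**Figure D3:**
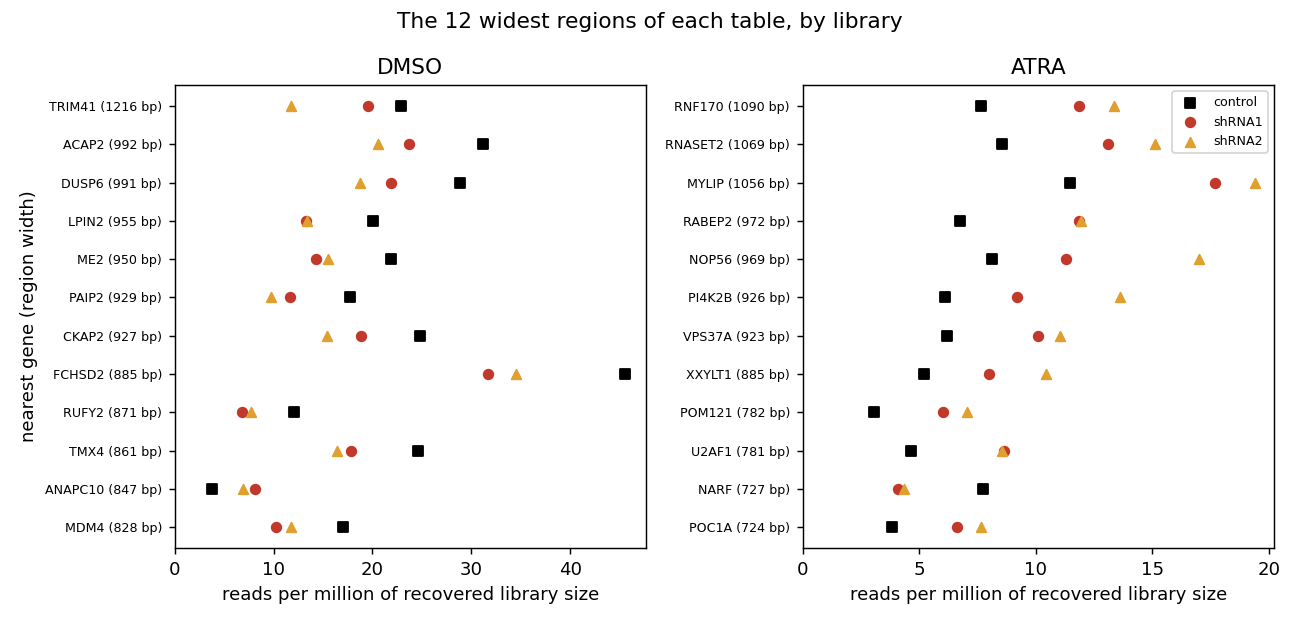
Reads of each library divided by its recovered size (x axis, as CPM) for the 12 widest regions of the DMSO and ATRA tables, named by nearest gene and width (y axis). Squares are the control, circles shRNA1 and triangles shRNA2. In DMSO the control lies above both hairpins except at ANAPC10, and in ATRA below both except at NARF. On normalized counts the mean of the hairpins lies below the control at all ATRA regions shown except POM121.

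In ATRA the widest regions were mostly more accessible in the knockdown on the scale of the authors' fold changes, but not on the scale of their normalized counts. On the first scale 109 of the 134 wide regions were higher and 25 lower (81.3% higher, against 79.1% of all 268 listed regions). Of the 37 regions of 500 bp or more 34 were higher and 3 lower. The scales differ by 1.00 log2 units in ATRA, so that a ratio of knockdown to control is 2.00 times smaller on the normalized counts. There, 82 wide regions were higher (all listed regions, 69.0%), and only 13 of the 37 regions of 500 bp or more. All 27 wide regions that moved to the other side of 0 were at least 348 bp wide, and 0 of the regions under 150 bp moved.

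Counting error separates these regions further. Of the 109 higher wide regions, 29 had a 95% exact interval above 1 on the normalized count scale, 77 had an interval that held 1 and 3 had one below 1. The 25 lower regions had intervals below 1 on both scales. In the class of 500 bp or more 0 were above 1, 6 below and 31 held 1. Only 27 of the 134 wide ATRA regions changed sign between the scales, but most of the higher ones did not exclude 1 on normalized counts. The treatments were not compared by a test. Which scale is closer to the cells was not tested.

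**Figure D4:**
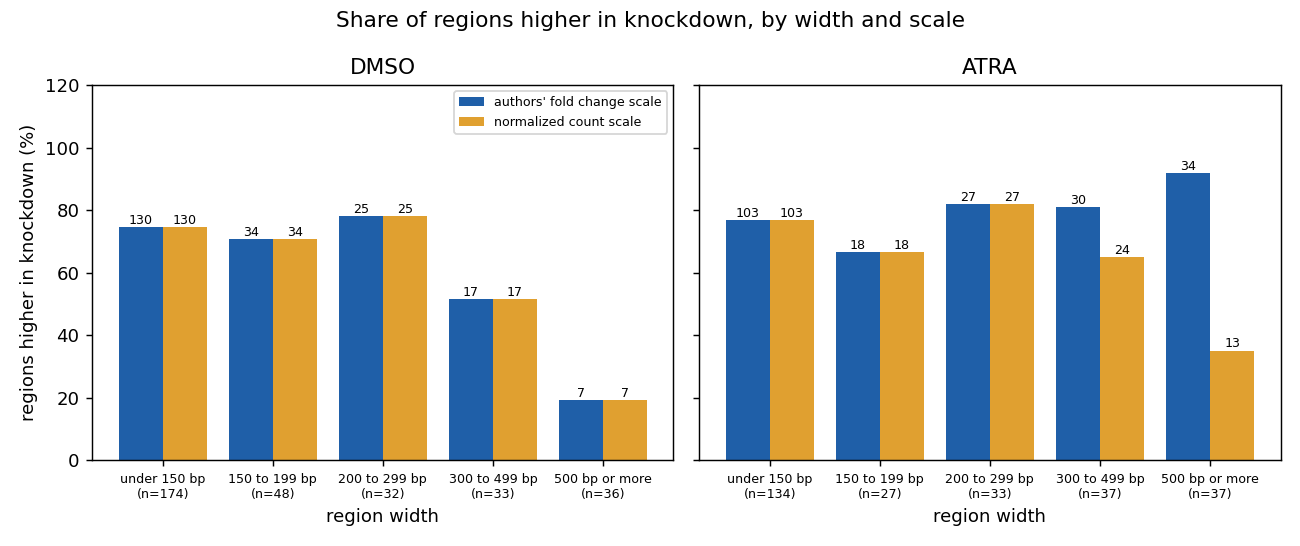
Percent of regions higher in the knockdown (y axis) by region width (x axis) in DMSO and ATRA, on the authors' fold change scale (blue) and the normalized count scale (orange), with the number of higher regions above each bar. The 2 scales give the same counts in DMSO, while in ATRA the class of 500 bp or more goes from 34 to 13 of 37.

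The widest ATRA region lay in RNF170, a ubiquitin ligase gene of the endoplasmic reticulum, and spanned 1090 bp. It held 209 reads with shRNA1, 231 with shRNA2 and 110 in the control, 1.65-fold higher (95% exact counting interval 1.33 to 2.05). Its normalized counts were instead lower with the hairpins, at 165 ± 0.474 (SD, n = 2), than the 201 of the control. The same turn of sign was found at RNASET2, a lysosomal ribonuclease gene (chr6:167369895-167370963), with 231, 261 and 123 reads and normalized counts of 185 ± 2.35 (SD, n = 2) against 225. It was also found at MYLIP, the ubiquitin ligase gene that degrades the LDL receptor (chr6:16129015-16130070), with 312, 335 and 165 reads and normalized counts of 243 ± 5.68 (SD, n = 2) against 302. At MYLIP the interval of the normalized ratio was below 1 (0.678 to 0.962), while at RNF170 and RNASET2 it held 1.

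NOP56, a box C/D snoRNP protein gene of ribosome biogenesis (chr20:2632713-2633681), had 199, 294 and 117 reads, 1.74-fold higher (1.42 to 2.14), and 184 ± 37.0 normalized counts (SD, n = 2) against 214. PABPN1, the nuclear poly(A)-binding protein gene, had the most reads of the ATRA table, 302, 437 and 195, and was 1.56-fold higher (1.33 to 1.84). Its normalized counts were 276 ± 51.4 (SD, n = 2) against 357. RABEP2, PI4K2B, VPS37A, XXYLT1, U2AF1, POC1A and SEL1L were likewise 1.62-fold to 1.86-fold higher on the fold change scale, with a mean of the hairpins below the control on normalized counts. These genes act in endosome traffic (RABEP2, VPS37A), splicing (U2AF1) and disposal of misfolded proteins of the endoplasmic reticulum (SEL1L).

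Among the 37 ATRA regions of 500 bp or more 21 changed sign, while 13 were higher and 3 lower on both scales, and the normalized intervals of the 13 held 1. The region in POM121, a nucleoporin gene, had 106, 122 and 44 reads and was 2.13-fold higher (1.54 to 3.02), but its normalized counts of 85.6 ± 2.20 (SD, n = 2) and 80.6 hardly differed. OSBPL5, an oxysterol-binding protein gene 2570 bp from a region of 555 bp, had 30, 29 and 6 reads (4.05-fold higher, 1.75 to 11.5). CDC42BPA, a Cdc42-binding kinase gene 18 bp from a region of 577 bp, had 59, 54 and 15 (3.10-fold higher, 1.80 to 5.73). Lower on both scales, with intervals below 1 on each, were all 3 lower regions of this width: NARF, 5960 bp from a region with 72, 75 and 111 reads (1.83-fold lower, 1.42 to 2.36), ZNF770, a zinc finger gene, with 39, 43 and 79 (2.34-fold lower, 1.70 to 3.23), and C1QTNF7, a C1q/TNF-related protein gene, with 13, 22 and 42 (2.91-fold lower, 1.82 to 4.70). PMF1, a kinetochore gene, had a region of only 222 bp with 183, 177 and 239 reads, among the 6 best covered of the table (1.61-fold lower, 1.36 to 1.90).

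The largest changes among wide regions were found in regions of 160 to 209 bp in DMSO and 151 to 251 bp in ATRA, where reads were few. In DMSO the 6 largest increases were at FRRS1, YRDC, HDAC9, KIAA1024L, LANCL1 and MYH13, all with 0 control reads. Setting the control to 3 reads, the limit that a count of 0 allows, FRRS1 was 5.79-fold and MYH13 3.90-fold higher. The lower limits of their exact intervals were 4.51 and 2.98. YRDC, a tRNA modification gene (chr1:38273376-38273539), had 20 and 15 knockdown reads. The hairpins differed most at HDAC9, with 7 and 28 reads. Among regions with at least 20 reads the 6 largest decreases were at AASS, an enzyme gene of lysine breakdown (2, 5 and 20 reads, 7.07-fold lower, 2.87 to 19.8), C19orf12 (4, 3 and 20, the same fold), SLC24A3, IFNAR2, UTRN and BEST3. FN1, the fibronectin gene, was lower still but on 15 reads (0, 3 and 12; 9.90-fold lower, 2.67 to 54.7). IFNAR2, a subunit gene of the type I interferon receptor (chr21:34602982-34603174), had 2, 9 and 21 reads and was 4.73-fold lower (2.18 to 10.9).

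In ATRA the 6 largest increases were at PIP4K2A, YOD1, FHL1, MRVI1, PDLIM2 and ADCY9, again with 0 control reads. Against 3 control reads they were from 4.67-fold (PIP4K2A) to 3.30-fold (ADCY9) higher on the fold change scale. The lower limits of the exact intervals of these 2 were 3.59 and 2.48, and on normalized counts 1.79 and 1.24. YOD1, a deubiquitinase gene, had 14 and 15 reads, close to each other, while PIP4K2A, a lipid kinase gene, had 12 and 22. The 6 largest decreases were at PXDC1 (4, 3 and 19 reads) and AKAP13, a kinase anchor gene (2, 5 and 19), both 6.59-fold lower (2.65 to 18.6) on the fold change scale, GIPC1, MLPH, FFAR4 and GNG4. On normalized counts PXDC1 was 13.1-fold and AKAP13 13.5-fold lower. FFAR4, a fatty acid receptor gene, had 9 and 2 reads with the hairpins and GNG4, a G protein gamma subunit gene, 2 and 9, each against 21, so that the hairpins ranked in opposite order at equal totals (each 4.64-fold lower by the fold change scale, 2.14 to 10.7).

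Just inside it in DMSO, BACH1 (150 bp) had 25, 21 and 2 reads and GLIS3 (152 bp) 16, 28 and 47. Just outside, ARID5A (146 bp) had 19, 29 and 2 and SDK1 (145 bp) 9, 5 and 23. In ATRA the nearest inside were ITGA6 (151 bp; 19, 13 and 1 reads) and MLPH (151 bp; 6, 2 and 18), and the nearest outside NDUFAF2 (147 bp; 9, 15 and 0) and UNKL (146 bp; 13, 10 and 0).

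Refitted with edgeR's quasi-likelihood test over each whole table, 148 of the 148 wide DMSO regions that passed the count filter were called at an adjusted p below 0.05 (82 higher, 66 lower), where 100% of all tested regions were called (65.6% higher, 34.4% lower). In ATRA 133 of 133 were called (108 higher, 25 lower), against 100% of all tested (79.0% higher, 21.0% lower). Because the tables were selected by p, these counts add nothing to the selection. On the normalized count scale the same test called 40 wide ATRA regions, 14 higher and 26 lower (57.6% of all tested called, 35.4% higher and 22.2% lower), and DESeq2 with its own size factors called 10 wide ATRA regions, all lower (6.5% of all tested). In DMSO DESeq2 called 0 wide regions with its own size factors (0.0% of all tested), with 40 at an unadjusted p under 0.05. These size factors were estimated from the listed regions alone, of which 79.1% in ATRA were higher on the fold change scale. They are therefore no separate check of the normalized count scale.

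Both hairpins gave the same direction in 149 of 149 wide DMSO regions and 134 of 134 in ATRA, which the selection by p favours. They were within 2-fold of each other in 135 and 116. No wide DMSO region of 300 bp or more differed over 2-fold between hairpins (0 of 69), and 4 of 74 did in ATRA: DEGS1, a ceramide synthesis gene, with 34 reads (shRNA1) and 11 (shRNA2), STX2 with 16 and 33, SLC17A7 with 27 and 79 and CUL4A with 18 and 42. These 4 were named after their values were seen. Over the wide regions the hairpins differed with a chi-square per degree of freedom of 2.11 in DMSO and 2.59 in ATRA, above the value near 1 that counting error alone gives.

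Regions with no distance to the nearest gene are here called inside it, although they may also cross its start or end. Wide regions lay inside a gene in 118 of 149 cases (79.2%) in DMSO and 118 of 134 (88.1%) in ATRA, against 75.3% and 74.6% of the narrower regions. Those outside lay closer to the gene: their median distance was 868 bp in the DMSO table (narrower regions 4875 bp) and 1386 bp in the ATRA table (2456 bp). Only 14 wide DMSO regions and 6 wide ATRA regions lay more than 2000 bp from a gene, against 35 and 19 narrower ones. All tables stop at 10 kb, regions are not replicates, and the side of the gene on which a region lies was not analysed here, so no test is given. The share higher in the knockdown was similar inside (66 of 118) and outside genes (17 of 31) in DMSO, and was 98 of 118 and 11 of 16 in ATRA on the fold change scale, or 71 of 118 and 11 of 16 on normalized counts.

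**Figure D5:**
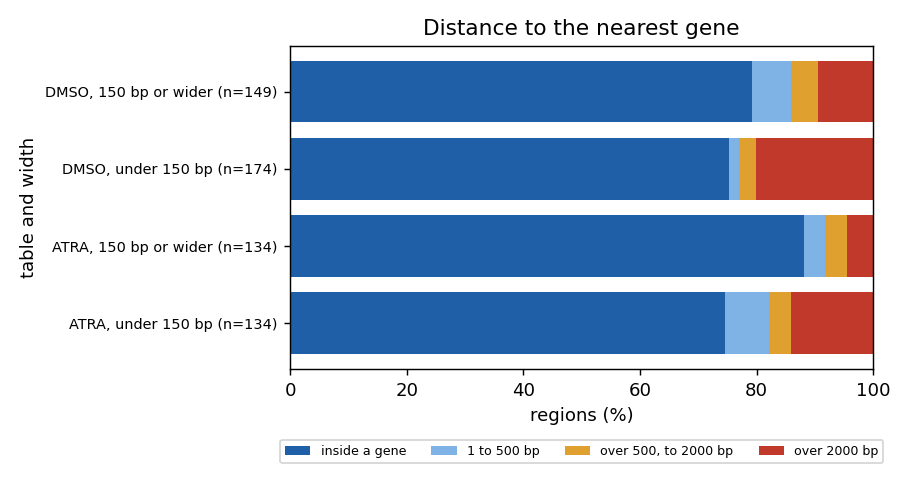
Percent of regions (x axis) inside a gene or at 1 to 500 bp, over 500 to 2000 bp or over 2000 bp from the nearest gene, for wide and narrower regions of each table (y axis). Regions called inside may also cross the start or end of the gene. Wide regions have the larger blue share, 79.2% and 88.1%, and the smaller share over 2000 bp.

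Regions outside a gene but within 500 bp of it were few. In DMSO 7 of 10 were lower, where 66 of all 149 wide regions were: NOL3 (18 bp away; 15, 28 and 46 reads), WASF3 (35 bp; 18, 20 and 40), SOX12 (37 bp; 172, 127 and 213), RILPL1, RTN4R, MAGI3 and ANO6. SOX12, a transcription factor gene, was 1.76-fold lower (1.47 to 2.11). WASF3, an actin regulator gene, was 2.61-fold lower (1.63 to 4.17). The 3 higher were CCDC144A, C1QTNF6 and PRKCD, a protein kinase C gene of the delta type (250 bp; 32, 34 and 7 reads, 3.81-fold higher, 1.75 to 9.84). Of all wide ATRA regions 81.3% were higher on the fold change scale and 61.2% on normalized counts. All 5 ATRA regions at this distance were higher, by sign on both scales: C3orf80 (2 bp; 9, 23 and 1), CDC42BPA, ZCCHC7, PLK2, a polo-like kinase gene (223 bp; 96, 89 and 35), and SOS2, a Ras exchange factor gene (363 bp; 42, 55 and 9, 4.44-fold higher, 2.24 to 10.0). On normalized counts the intervals of CDC42BPA and PLK2 held 1 and those of the others did not.

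Of 442 genes in 14 lists of myeloid, signalling and other cell type genes, 15 had a wide region (16 regions, 8 in each table), and 34 had a region of any width. In DMSO, PLAC8 of the azurophil granule list (23, 33 and 5 reads), TCF7L2, a Wnt pathway factor (32, 19 and 3), SMAD3, a TGF-beta signal transducer (19, 41 and 6), NTN1, the netrin-1 guidance cue gene (49, 69 and 17), and EFNA5, an ephrin gene (22, 14 and 2), were higher. BCL7A, a BAF subunit gene (20, 30 and 52), MAD1L1, a spindle checkpoint gene (40, 27 and 62), and IFNAR2 were lower. NTN1 had the widest of these regions (427 bp) and was 2.80-fold higher (1.68 to 4.97), and MAD1L1 (375 bp) was 2.29-fold lower (1.60 to 3.29).

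In ATRA, CA2 of the erythroid list (50, 72 and 16 reads), E2F1, a cell cycle factor gene (39, 24 and 7), GPRC5A of the retinoic acid list (9, 14 and 0), UNC5B, a netrin receptor gene (10, 9 and 0), ITGA6, an integrin gene, EFNA5 (8, 14 and 0) and MAML2, a Notch coactivator gene (23, 13 and 1), were higher, and PMF1 was lower. MAML2 was 14.8-fold higher, but from 1 control read, so that its interval reached 602. On normalized counts MAML2 was 7.52-fold higher, and the intervals of CA2 and E2F1 no longer excluded 1. Nor did the exact lower limit of UNC5B (0.96). There the adjusted p of edgeR's quasi-likelihood test was 0.24 for CA2, 0.29 for E2F1, 0.094 for ITGA6 and 0.065 for MAML2, so their calls ended. UNC5B, which the count filter left out on the fold change scale, was called there by the same test (adjusted p 0.048). CA2 had the widest region of these (580 bp). The specific and gelatinase granule, monocyte and macrophage, lymphoid, megakaryocyte and eosinophil, basophil and mast cell lists had no wide region, so 5 of 14 lists had 0. These lists hold 13 to 31 genes each, and only 15 of all 442 list genes had a wide region. A count of 0 is therefore not read as a result about them.

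Some genes with wide regions share a kind of product. They were grouped by the first letters of their symbols, which misses members with other names, so counts over a kind are not given. Of the kinase genes found in this way in DMSO, DGKB had 29, 26 and 4 reads, NEK5 22, 28 and 3, STK24 30, 31 and 4, STK32B 10, 21 and 1, STK35 29, 30 and 6 and TNIK 8, 10 and 0. These regions and that of PRKCD were higher, and they were 169 to 241 bp wide. In DMSO 34 of 48 regions under 200 bp and 25 of 32 from there to under 300 bp were higher. STK24, a Ste20-type kinase gene, was 6.16-fold higher (2.29 to 23.3).

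Regulators of small GTPases found by symbol in DMSO were higher: ARHGAP25 (38, 57 and 11), ARHGEF2 (35, 43 and 9) and RALGAPB (142, 157 and 72). ACAP2, which the grouping by symbol missed and whose values are given above, was lower. Other regulators missed in this way were not gathered. RALGAPB, the beta subunit gene of the Ral GTPase-activating complex, was 1.68-fold higher (1.29 to 2.20) and one of only 7 higher regions of 500 bp or more. Zinc finger genes went both ways: ZNF398 (105, 99 and 143), ZNF443 (117, 135 and 180) and ZNF777 (29, 30 and 57) were lower, and ZNF518A (41, 54 and 12) was higher.

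EFNA5 was the only gene with a wide region in both tables, at identical coordinates (chr5:106724909-106725064, inside the gene). In DMSO it held 22 and 14 knockdown reads against 2, a ratio of 7.27 (1.87 to 62.3). In ATRA it held 8 and 14 against 0 and was 3.02-fold higher against 3 control reads on the fold change scale (exact lower limit 2.26). On normalized counts that limit was 1.13. Of 8 further genes with a wide region in one table and a narrower one in the other, 5 were higher in both on the fold change scale: AKAP7, DGKB, GPRC5A, TSPAN8 and SEL1L, the last of which was lower in ATRA on normalized counts. Of all listed regions 65.9% were higher in DMSO and 79.1% in ATRA on that scale. The regions of GPRC5A lay 253 bp apart, and those of the other genes just named from 47038 bp (AKAP7) to 264826 bp (DGKB). The remaining genes of the 8 turned. BCL7A was lower at its wide DMSO region and higher at a narrower ATRA region 39999 bp away. IRS1, an insulin receptor substrate gene, was higher at its wide DMSO region (19, 18 and 2 reads) and lower 3013 bp away in ATRA (6, 8 and 29). MLPH was higher in DMSO (21, 6 and 0) and lower at its wide ATRA region 32505 bp away (6, 2 and 18).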

How the data were processed

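ATAC-seq was done on 50000 NB4 cells per condition, per the labels' protocols, and 6 libraries were grouped by title. The free text of the DMSO control names ATRA, but its title and stage give DMSO. The submitters' processing notes name the build GRCh37.p13 and the tools STAR, MACS2, bcl2fastq, edgeR and Picard 2.5.0; settings and any pooling before peak calling are not stated there. Per the file headers, the authors deposited raw read counts, normalized counts (a signal, the count times 1 factor per library), log2 fold change and mean log2 CPM, an F score and an unadjusted p-value.

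Effective library sizes were recovered from the deposited log2 values with edgeR's own formulas, and gave back every log2 fold change within 0.00657 (DMSO) and 0.00174 (ATRA). They were 11497011 to 14718288 reads in DMSO and 14372794 to 17631538 in ATRA. The test was edgeR 4.0.16 (R 4.3.3, quasi-likelihood, 1 residual degree of freedom, filterByExpr at 10 reads, Benjamini-Hochberg over the table). It was also run on simulated regions, most of them unchanged, which cannot show how it behaves on regions already selected by p. With 1 control library, the spread behind each p-value is that of the hairpins, which may be technical. Ratios use summed knockdown reads with 95% exact intervals, which cover counting error only. With 0 control reads the ratio is taken against 3 reads, and the exact interval has a lower limit only. Normalized counts are given as mean ± SD of the hairpins. Alternatives were the normalized count scale, no filter, DESeq2 1.42.0, a 200 bp limit and leaving out a hairpin.

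The text names, in each table, the 12 widest wide regions, the 6 with most reads, the 6 largest changes each way with at least 20 reads, members of the lists and genes in both tables; other regions were named after their values were seen. The members and lists were chosen with earlier results of these data known. Promoter sequences are from RefSeq (GRCh38.p14), matched by symbol or older symbol.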

Additional observations from a re-analysis of the deposited data

How the results depend on the processing

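The ATRA results depended on the scale. On normalized counts the log2 ratio turned sign at RNF170 (-0.28), RNASET2 (-0.29), MYLIP (-0.31), RABEP2 (-0.18), NOP56 (-0.22), PI4K2B (-0.12), VPS37A (-0.23), XXYLT1 (-0.19), U2AF1 (-0.12), POC1A (-0.11), PABPN1 (-0.37) and SEL1L (-0.30), since that scale is shifted by a constant, and the wide regions called went from 133 to 40. With its own size factors DESeq2 called 10 of 127 tested, and at the recovered sizes 0 of 134 (35 and 38 had an unadjusted p under 0.05). In DMSO it called 0 of 66 and 0 of 149 (40 and 33 unadjusted); the cause was not tested. The normalized ratio moved by more than the hairpins' SD, with the same sign, in 15 named ATRA and 17 named DMSO regions. A 200 bp limit left 49 regions higher and 52 lower in DMSO, as the 48 narrowest wide regions left out were 34 higher and 14 lower. With either hairpin left out the higher wide regions numbered 83 in DMSO and 109 in ATRA, as with both, and all 72 values of named regions per table kept their sign. DESeq2's own size factors, added after the data were seen, gave 83 and 82 higher. Being estimated from the listed regions alone, those factors are no separate check of the scale. Regions inside a gene stayed between 83.2% and 85.1% with a 200 bp limit or at least 20 reads. No paired analysis was possible because each treatment has 1 control library, so the groups compared share fewer than 2 replicate numbers. Depth limits the regions with 0 to 2 control reads, whose intervals are wide or have no upper end.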

Other observations

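Some wide regions lay close together. In DMSO 1 pair of neighbours lay within 100 kb, TRIM7 and TRIM41, both ubiquitin ligase genes on chromosome 5, 28517 bp apart and in opposite directions: TRIM7 had 79, 76 and 29 reads (shRNA1, shRNA2, control; 2.16-fold higher, 95% exact interval 1.44 to 3.33) and TRIM41 was lower. In ATRA there were 4 pairs, with 4 of 4 in the same direction on the fold change scale: FKBP8 and KXD1 (13796 bp apart), SORBS3 and PDLIM2 (26030 bp), PLEC and GRINA (55547 bp) and POC1A and TWF2 (84004 bp). All of these regions were higher on that scale, as were 81.3% of all wide ATRA regions. On normalized counts POC1A and TWF2 were on opposite sides, with log2 ratios of -0.11 and 0.27. SORBS3, PDLIM2 and PLEC, genes of the actin cytoskeleton and its anchors, had 0 control reads each. Across treatments, the DMSO region in AQR, a spliceosomal helicase gene (38, 43 and 69 reads), and the ATRA region in ZNF770 (39, 43 and 79) lay 18232 bp apart and both were lower, on both scales. IRS1, higher in DMSO, and RHBDD1 (153, 143 and 63 reads in ATRA) lay 36196 bp apart, and RHBDD1 was higher on the fold change scale (log2 0.95) and lower on normalized counts (-0.05). No test was made of these pairs, which were found by looking.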
